A study of Mus musculus with 20 samples.

Results

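Acetylation of histone H3 at lysine 27, written H3K27ac, was profiled by ChIP-seq in hematopoietic stem cells (HSC), the cells that sustain all blood lineages. The cells were FACS-sorted from adult mice of 2 genotypes. Knockout (KO) mice were Mx1-Cre+/-;mTORflox/flox, and control (WT) mice were Mx1-Cre-/-;mTORflox/flox, so the controls also carried floxed Mtor alleles and had no Cre. Mice of both groups were given poly(I:C), a synthetic double-stranded RNA that raises interferon and so switches on the Mx1 promoter that drives Cre, a promoter that is also active outside HSC. The members are the peaks of the KO and the WT H3K27ac library on chromosomes 1 to 19 and X, which number 30114 of the 368175 peaks in the 12 peak lists of the series, from 2 of its 20 samples. The KO list held 20036 of them and the WT list 10078. The labels do not say how many mice made up a library. With 1 library per genotype no test between genotypes was possible and no value below has a replicate error. The presence of Cre, library depth and the loss of mTOR cannot be told apart in these libraries.

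H3K27ac is placed by the acetyltransferases p300 and CBP on nucleosomes beside active promoters and enhancers, is removed by histone deacetylases and is read by bromodomain proteins. At promoters it usually accompanies H3K4me3, and away from promoters it marks enhancers in open chromatin, many of which are specific to a cell type. mTOR is the kinase at the centre of the complexes mTORC1 and mTORC2, which couple nutrients and growth factors to protein synthesis and growth and which act in the balance between rest and division in HSC.

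The lists give a position, a score and no sequence, so promoters from RefSeq (GRCm38.p6, the assembly also called mm10) are shown to give the sequence context of the 4 classes of genes described below. Each is the sense strand from 250 bases before to 50 bases after a transcription start, with CG dinucleotides in capitals. The promoter of the histone gene H3c6 (chr13:23562336-23562635, minus strand) lay under an H3K27ac peak in both genotypes and holds 18 CG dinucleotides. Those of Rps7, a protein of the small ribosomal subunit (chr12:28635904-28636203, minus strand, 21 CG), and of Cxcr4, the receptor that retains HSC in bone marrow (chr1:128592250-128592549, minus strand, 20 CG), lay under a peak in KO only. The promoter of Samsn1, an adaptor protein of blood cells (chr16:75909217-75909516, minus strand, 5 CG), lay under a peak in WT only. The promoter of Mpo, the myeloperoxidase gene of granulocytes (chr11:87793534-87793833, plus strand, 2 CG), lay under none.
H3c6: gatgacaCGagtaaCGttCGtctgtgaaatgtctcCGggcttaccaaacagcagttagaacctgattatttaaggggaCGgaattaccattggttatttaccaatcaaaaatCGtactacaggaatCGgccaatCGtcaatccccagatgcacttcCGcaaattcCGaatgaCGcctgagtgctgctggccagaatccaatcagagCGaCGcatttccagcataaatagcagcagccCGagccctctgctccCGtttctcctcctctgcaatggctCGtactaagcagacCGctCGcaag
Rps7: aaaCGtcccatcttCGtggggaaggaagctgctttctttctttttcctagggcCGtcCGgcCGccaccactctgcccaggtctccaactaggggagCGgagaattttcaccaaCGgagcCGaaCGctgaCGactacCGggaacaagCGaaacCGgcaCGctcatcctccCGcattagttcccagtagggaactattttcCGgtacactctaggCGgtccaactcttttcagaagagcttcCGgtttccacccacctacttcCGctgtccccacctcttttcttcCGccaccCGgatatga
Cxcr4: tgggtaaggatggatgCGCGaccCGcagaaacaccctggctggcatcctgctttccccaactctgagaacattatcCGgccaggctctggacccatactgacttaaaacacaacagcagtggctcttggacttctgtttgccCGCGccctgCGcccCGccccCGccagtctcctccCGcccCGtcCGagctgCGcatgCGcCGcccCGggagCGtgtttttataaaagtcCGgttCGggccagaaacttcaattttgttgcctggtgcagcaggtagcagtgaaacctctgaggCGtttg
Samsn1: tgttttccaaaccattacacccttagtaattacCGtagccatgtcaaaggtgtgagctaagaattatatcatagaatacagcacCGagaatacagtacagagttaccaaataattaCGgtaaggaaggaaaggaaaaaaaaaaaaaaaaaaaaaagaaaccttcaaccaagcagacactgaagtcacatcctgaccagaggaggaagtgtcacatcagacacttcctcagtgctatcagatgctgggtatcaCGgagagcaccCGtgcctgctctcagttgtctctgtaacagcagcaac
Mpo: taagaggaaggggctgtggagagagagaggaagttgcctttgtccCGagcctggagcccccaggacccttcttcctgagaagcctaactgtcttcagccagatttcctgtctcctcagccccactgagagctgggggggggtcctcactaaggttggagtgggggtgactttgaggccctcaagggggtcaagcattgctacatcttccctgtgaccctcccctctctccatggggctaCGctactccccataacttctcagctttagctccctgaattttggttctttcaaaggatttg

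Base composition and motifs differed between the classes, and a single promoter can lie far from its class, as that of Samsn1 does. A coding gene was called marked where a peak overlapped the window of 1000 bp around either annotated end, and 17274 of the 21631 coding genes had a promoter sequence. The median promoter held 22 CG dinucleotides in 300 bases for the 2491 genes marked in both genotypes, 21 for the 4541 marked in KO only, 13 for the 126 marked in WT only and 6 for the 10116 marked in neither. The motif CCGGAAG, a core site of ETS factors, was found on either strand in 24.5% of promoters marked in both, 21.3% of those in KO only, 7.14% of those in WT only and 4.87% of those in neither, against 12.0% of all 17274 promoters. The GC box GGGCGG was found in 63.7%, 64.7%, 48.4% and 34.7% of the same classes, against 46.9% of all promoters. In these 3 values the promoters marked in KO only were close to those marked in both, and the small WT-only class lay between them and the promoters marked in neither. With equal numbers of peaks the WT-only class grew to 305 promoters, of which 12.8% held the ETS site, against 6.03% of those marked in neither. The motif CCAAT had another order, at 42.9% of promoters marked in both, 38.7% of those in KO only, 46.8% of those in WT only and 38.7% of those in neither. A match describes letters in the window only, and a peak at either end of a gene counts toward its class.

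The targeted gene and the HSC markers describe the libraries. At the lower end of Mtor the WT list had a peak of 449 bp with a score of 99.23 and the KO list had none, while a peak at the upper end, near Exosc10, was called in KO (178.39) and in WT (59.66). Of 12 HSC marker genes, an H3K27ac peak lay at an end of 6 in KO, among them Mecom, Procr, Runx1, Gata2 and Tal1, and of 1 in WT (Tal1). Over all coding genes, 39.6% had a peak at an end in KO and 14.6% in WT, so neither count stands far from the background. The ends of Kit, the receptor for stem cell factor, and Ly6a, which encodes Sca-1, had no peak in either genotype. Within 50 kb of the 12 genes, KO peaks were found at all 12 and WT peaks at 10, with none at Kit and Hlf, and 4 of the 16 WT peaks there overlapped one of the 51 KO peaks. Over all coding genes, 25.2% had no KO peak and 43.5% no WT peak within that distance. Myeloid markers had a peak at an end of 1 of 20 genes in KO and none in WT, and erythroid markers had 6 of 20 in KO and none in WT, so 14 of these erythroid genes, the globins and Gata1 among them, had none in either list.

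The KO list held more, wider and higher-scoring peaks than the WT list. The score is the authors' peak caller value, no score in either list was below 50 and its scale is not stated, so most comparisons below use the rank of a peak in its own list, given as a percentile with 100 as the highest. Where a KO and a WT score stand side by side below, the pair does not measure a difference in signal. Peak widths had a median of 1237 bp in KO (quartiles 686 and 2117 bp) and 333 bp in WT (253 and 549 bp). A score of 100 or more was reached by 52.2% of KO peaks and 17.5% of WT peaks. The ratio of KO to WT peak numbers lay between 1.72 on chromosome 3 and 2.31 on chromosome 10 over the 19 autosomes. It was 1.31 on chromosome X, with 447 peaks in KO and 342 in WT, where 32.7% of WT peaks overlapped a KO peak, against 47.9% to 62.6% on the autosomes.

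Peaks of the shared regions were much wider in KO. A WT peak was overlapped by 4891 KO peaks (24.4%, exact 95% Clopper-Pearson interval, CI, 23.8 to 25.01), and a KO peak by 5259 WT peaks (52.2%, CI 51.2 to 53.2). These intervals and those below cover counting error only. KO peaks with no WT peak made up 75.6% of the KO list and WT peaks with no KO peak 47.8% of the WT list. Of the overlapping WT peaks, 92.4% lay wholly inside 1 KO peak, and WT peaks covered a median of 28.3% of a shared KO peak. Shared peaks had a median width of 2145 bp in KO and 506 bp in WT, and 370 KO peaks held 2 or more WT peaks. Unshared peaks had a median of 1048 bp in KO and 262 bp in WT.

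The overlap depended on score in both lists, with different shapes. In the highest-scoring decile of each list, 75.5% of KO peaks overlapped a WT peak and 83.2% of WT peaks overlapped a KO peak. The KO share fell through every decile to 5.44% in the lowest. The WT share fell to 44.1% in decile 5 and lay between 40.6% and 43.4% in the deciles below it. The location of peaks followed the same course, since 74.6% of KO peaks in the highest decile and 14.9% in the lowest lay at a gene end, while the WT share was 41.2% in the highest decile and 22.1% in the lowest.

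**Figure D1:**
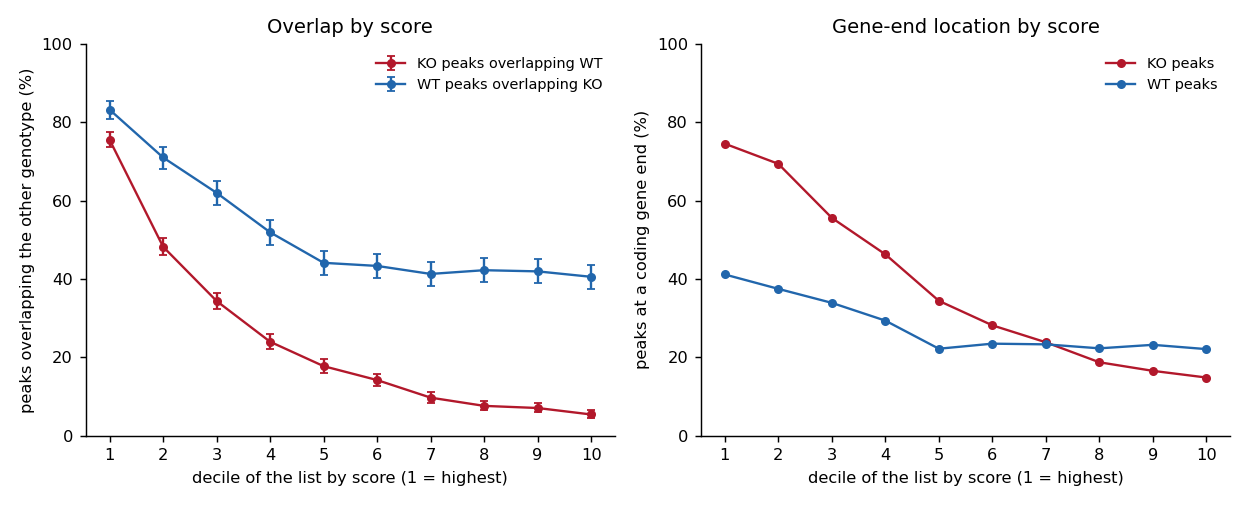
Left, percent of peaks in each decile of its own list by score that overlap a peak of the other genotype, with exact 95% intervals (counting error only); right, percent of peaks in each decile that lie at a coding gene end. The KO overlap falls from 75.5% to 5.44%, and the WT overlap levels off above 40% from decile 5 on.

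The highest scores in both lists lay mostly away from gene ends. Of the 20 highest-scoring peaks, 18 in KO and 19 in WT lay away from gene ends, all 20 of each overlapped a peak of the other genotype, and 15 of 20 in each list also overlapped a peak in 7 or 8 of the 8 H3K4me3, MYC and ATAC-seq lists of the same genotypes. Peaks at chr1:24611418-24616376, chr2:98666072-98667407 and chr9:35305181-35305664 were among the 200 highest in all 10 lists, with H3K27ac scores of 992.89, 3100 and 3141.04 in KO and 668.02, 3100 and 2653.97 in WT. These 3 regions ranked high whatever was measured.

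KO peaks lay at gene ends more often than WT peaks over the whole lists, but not at like width up to 2000 bp. In KO 38.3% (CI 37.6 to 38.9) of peaks lay at a gene end, 33.3% inside a gene and 28.5% between genes, and in WT 27.9% (CI 26.999 to 28.8), 32.1% and 40.02%. A wide peak reaches a window more easily, and by the midpoint of each peak the gene-end shares were 32.7% in KO and 25.9% in WT. The ratio of KO to WT peak numbers was 2.73 at gene ends, 2.06 inside genes and 1.41 between genes. Where a gene had a known transcription start, 92.3% of KO and 92.7% of WT gene-end peaks lay at the start rather than only at the other end.

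Most of the intergenic weight of the WT list came from its unshared peaks. Of the 4819 WT-only peaks, 58.6% lay between genes and 4.86% at a gene end, against 22.7% and 52.1% of the shared KO peaks and 23.0% and 49.0% of the shared WT peaks. The 15145 KO-only peaks had 30.4% between genes and 33.8% at a gene end. WT-only peaks seldom lay at other signals: 76.3% overlapped none of the 8 H3K4me3, MYC and ATAC-seq lists, against 11.9% of KO-only peaks, 2.70% of shared KO peaks and 3.57% of shared WT peaks. A peak in any of the 4 ATAC-seq lists of these genotypes was found at 79.9% of KO-only peaks and 17.5% of WT-only peaks. WT-only peaks were narrower, with a median of 262 bp against 1048 bp for KO-only peaks, and narrow peaks were less often open in both lists. Of all peaks over 250 and up to 500 bp, 37.4% in KO and 50.2% in WT overlapped an ATAC-seq peak. Over 500 and up to 1000 bp the shares were 77.5% in KO and 89.4% in WT. H3K4me3 was found in both genotypes at 41.2% of KO-only and 4.50% of WT-only peaks.

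**Figure D2:**
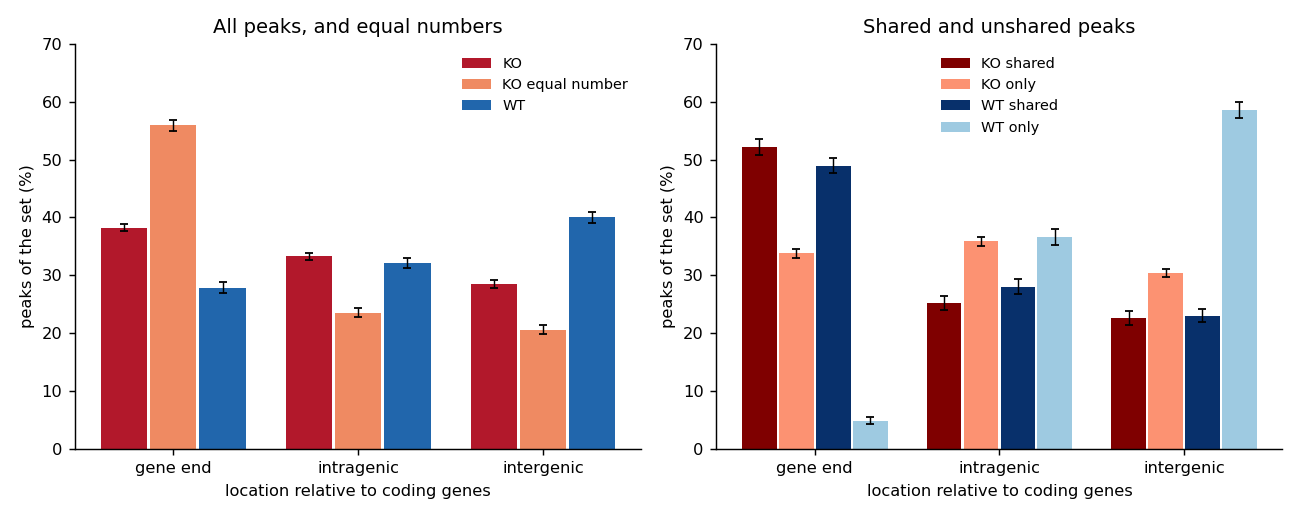
Percent of peaks at a coding gene end (within 1000 bp), inside a gene or between genes; error bars are exact 95% intervals for counting error. Left, all KO peaks, the 10078 highest-scoring KO peaks and all WT peaks; right, shared and unshared peaks of each list, with WT-only peaks at 58.6% between genes.

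Equal numbers of the highest-scoring peaks widened the difference in location. The 10078 highest-scoring KO peaks, those of score 103.78 or more, had 55.9% at gene ends, against 27.9% for the WT list. These KO peaks had a median width of 1883 bp, against 333 bp for the WT list. With the 500 highest peaks of each list the shares were 72.4% in KO and 39.6% in WT, and 362 KO and 198 WT peaks lay at a gene end. An ATAC-seq peak of any of the 4 lists overlapped 82.9% of KO and 55.4% of WT peaks. Among these open peaks, 16613 in KO and 5586 in WT, the gene-end shares were 45.4% in KO and 48.6% in WT, so the order turned. With equal numbers of those open peaks, 5586 in each, it turned back, to 68.8% in KO and 48.6% in WT, and with the 500 highest open peaks the shares were 74.0% in KO and 47.8% in WT. The restriction to open peaks was chosen after the data were seen.

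**Figure D3:**
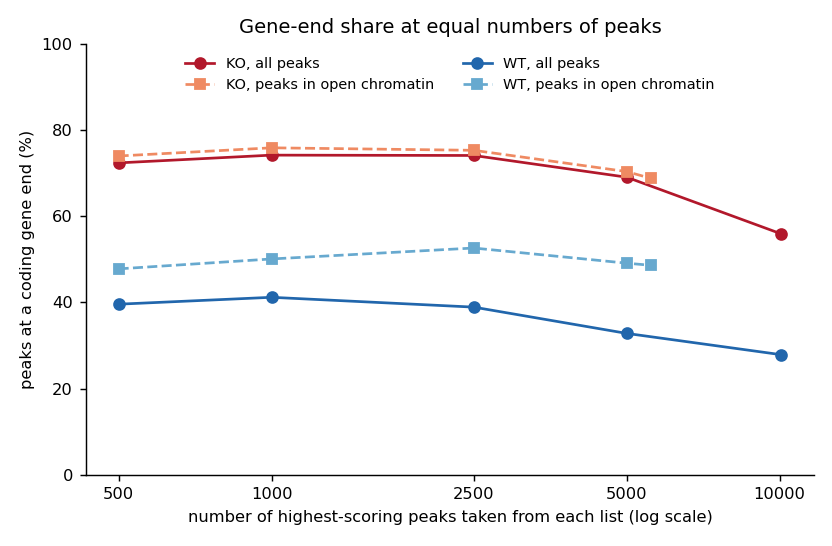
Percent of the highest-scoring peaks at a coding gene end against the number of peaks taken from each list (log scale), for all peaks (circles) and for peaks in open chromatin of any ATAC-seq list (squares). The KO share is above the WT share at every number shown, from 72.4% against 39.6% at 500 peaks to 55.9% against 27.9% at 10078.

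The shared regions also differed in rank by location. For the 2550 shared KO peaks at gene ends, the median percentile was 87.6 in KO and 64.7 for the WT peak inside, and 80.7% ranked higher in KO. For the 1108 shared regions between genes the medians were 70.6 in KO and 68.6 in WT, and 54.3% ranked higher in KO. Over all 4891 shared regions the Spearman rho of score between the lists was 0.38, given as a description, since the regions share both libraries. The lists differ in length, so a percentile spans a different number of peaks in each.

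Wide WT peaks were missed in KO more often than peaks of middle width. Of WT peaks over 500 and up to 2000 bp, the share with a KO peak was 92.6% up to 1000 bp and 92.5% above that. It was 75.7% (CI 64.3 to 84.9) of the 74 WT peaks over 2000 and up to 3000 bp, 42.9% (CI 21.8 to 66.0) of the 21 up to 4000 bp and 1 of the 5 up to 5000 bp, and the single wider WT peak had none. The KO score itself had a maximum at middle width, with a median of 229.42 for the 1324 KO peaks over 3000 and up to 4000 bp and 132.83 for the 365 over 5000 bp. No peak in any of the 10 lists was wider than 8767 bp, in KO H3K27ac none was wider than 8412 bp and in WT H3K27ac none was wider than 5182 bp. Whether a very wide region in KO goes uncalled was not tested, as read coverage was not used here.

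**Figure D4:**
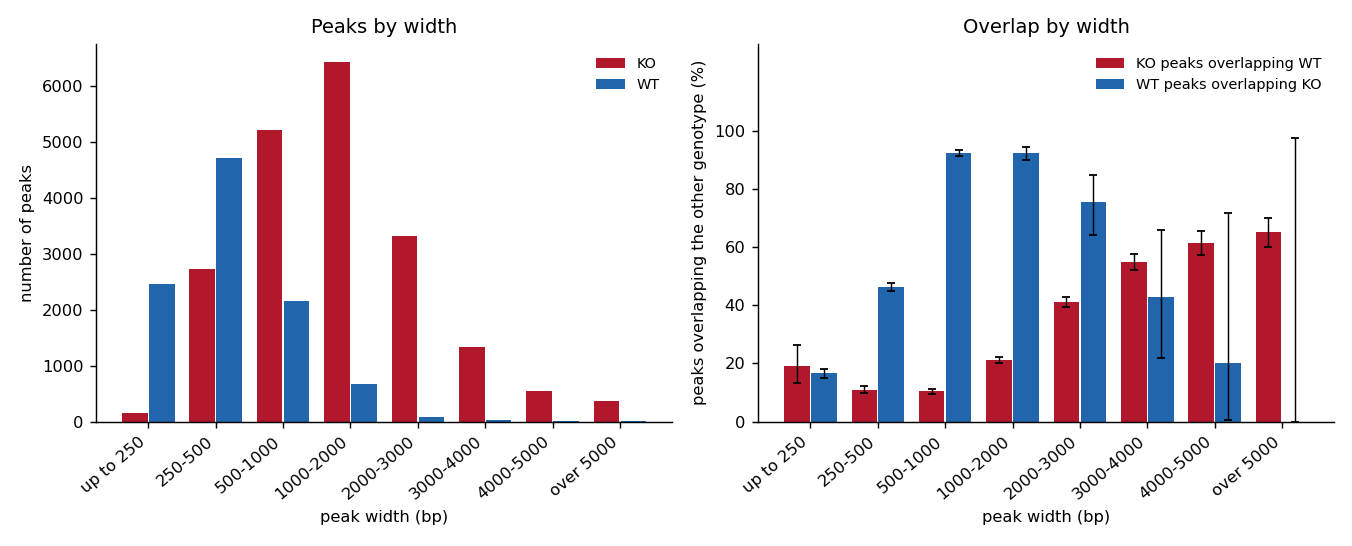
Left, number of peaks by width class in base pairs; right, percent of peaks in each class that overlap a peak of the other genotype, with exact 95% intervals. KO overlap is 19.1% up to 250 bp and 10.39% from 500 to 1000 bp and climbs above that to 65.2% over 5000 bp, while WT overlap is above 92% from 500 to 2000 bp and lower on both sides; the last WT class holds 1 peak.

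The wide WT-only peaks lay mostly in open chromatin, as wide peaks did in both lists. Of all peaks over 1000 and up to 2000 bp, 96.2% in WT and 94.7% in KO overlapped a peak in any of the 4 ATAC-seq lists. There were 85 WT-only peaks of 1000 bp or more, 11.02% of the 771 WT peaks of that width, with a median score of 102.48. A peak in any of the 4 ATAC-seq lists was found at 94.1% of them (CI 86.8 to 98.1), against 16.1% of the 4734 narrower WT-only peaks. The share was 61.2% with the first ATAC-seq library of KO and 89.4% with the second, against 57.6% with the first library of WT and 87.1% with the second. Only 8 of the 85 had a KO H3K27ac peak within 5000 bp. They included a peak of 3551 bp inside Meis1, an HSC homeobox factor (score 115.71), peaks of 1983 and 1608 bp inside Etv6, a repressor of the ETS family, and peaks inside Inpp5d, the SHIP1 phosphatase of blood cells (2069 bp, 161.31), and Cd47, the signal against phagocytosis (2957 bp, 150.97). These 4 genes were chosen after their values were seen, and Cd47 had an H3K4me3 peak at the same place in WT and not in KO. The Etv6 peak of 1983 bp overlapped none of the 4 ATAC-seq lists, and that of 1608 bp overlapped all 4. Near Lmo2, a cofactor of the HSC factor complex, the WT list had 5 peaks, of which a pair of unshared ones measured 2914 and 2788 bp, and the KO list had 3, of which 1 overlapped a WT peak.

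Most genes marked with H3K27ac were marked in KO only, and most genes marked in WT were also marked in KO. A peak lay at an end of 8556 coding genes in KO and 3149 in WT. Of these, 2983 were marked in both, 5573 in KO only, which is 25.8% of all coding genes, and 166 in WT only, which is 0.767%. With equal numbers of peaks the KO-only class had 3977 genes (18.4%) and the WT-only class 385 (1.78%), and 2764 were in both. At 5303 of the 5573 KO-only genes the KO peak overlapped no WT peak anywhere, and at the others it met a WT peak outside the window. The KO-only genes were not without other marks: 93.1% of them had H3K4me3 at an end in both genotypes, against 96.0% of genes marked in both, 57.2% of WT-only genes and 22.9% of genes marked in neither. ATAC-seq peaks in all 4 lists were found at 74.9% of KO-only genes, 87.7% of those in both and 44.6% of WT-only genes.

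Seen from the H3K4me3 peaks, the same difference appears at fixed regions. Of the 13954 H3K4me3 peaks of KO that overlapped one of WT, 65.9% held H3K27ac in KO, 50.0% with equal numbers of H3K27ac peaks, and 25.3% in WT. Of 2868 ATAC-seq regions open in all 4 lists, away from gene ends and without H3K4me3, 41.1% held H3K27ac in KO, 22.7% with equal numbers, and 14.7% in WT. The share was higher in KO at regions with H3K4me3 and at distal open regions, also at equal numbers of peaks.

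Some genes stood at the top of both lists. H3c6, a replication-dependent histone gene, had a KO peak of score 869.06 and 1123 bp and a WT peak of 407.27 and 1001 bp, both above percentile 99.7. Mttp, the microsomal triglyceride transfer protein gene, shares its end with Trmt10a, a tRNA methyltransferase gene, and the peak there scored 1028.43 over 2927 bp in KO and 290.54 over 1745 bp in WT. Mastl, the Greatwall kinase gene of mitosis, shares its end with Yme1l1, a mitochondrial protease gene, with a score of 863.52 in KO and 281.29 in WT. At all of these H3K4me3 and ATAC-seq peaks were present in both genotypes.

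The 8 KO-only genes with the highest scores, among those whose peak overlapped no WT peak, all had H3K4me3 at an end in both genotypes. Tmco4 had the highest score of them, 707.76, at rank 74 of the KO list. Gys1, the muscle glycogen synthase gene, followed with 677.02, then Cep295, a centriole protein gene, with 625.31, Cluap1, an intraflagellar transport gene, with 600.58, and Sem1, a proteasome lid subunit gene, with 590.64. Rps7 had 582.94 over 2421 bp, Gatb, a mitochondrial tRNA amidotransferase subunit gene, 557.42, and Isg20l2, an exonuclease gene of ribosome maturation, 549.57. Of the 8, Cluap1 was the one without an ATAC-seq peak at an end in any of the 4 lists.

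Among WT-only genes, Chd2, a chromatin remodeller gene, had the highest score, 270.7 over 4002 bp at percentile 99.3, and a second WT peak of 2538 bp and 272.74 lay 13725 bp from the gene. KO had 2 peaks within 50 kb of Chd2, of 1366 and 695 bp, and neither overlapped a WT peak. Mtmr3, a phosphoinositide phosphatase gene, had 219.08 over 1014 bp, and H3K4me3 and all 4 ATAC-seq lists had a peak there. Mid1, a ubiquitin ligase gene that crosses the pseudoautosomal boundary in the mouse, had 213.5 over 3786 bp. Samsn1 had 198.76 over 1690 bp, Mbnl1, a splicing regulator gene, 184.79 over 2409 bp, and Dapp1, an adaptor gene of B cell receptor signalling, 178.88 over 3422 bp. At Samsn1 and Mbnl1 H3K4me3 was also called in WT only, with scores of 195.04 and 284.74, although ATAC-seq peaks were present in both genotypes.

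Genes marked in both with the most different ranks were chosen for that difference, which is given as a description. Mat2b, a regulatory subunit gene of methionine adenosyltransferase, was at percentile 97.9 in KO and 3.58 in WT. Fbxo30, a ubiquitin ligase subunit gene, was at 98.7 in KO and 4.88 in WT, and the end shared by Brix1, a ribosome assembly gene, and Rad1, a DNA damage clamp gene, at 97.4 in KO and 5.33 in WT. In the other direction, Serbp1, an mRNA- and ribosome-binding protein gene, was at 2.14 in KO with a peak of 8054 bp and at 91.2 in WT with a peak of 1665 bp. The end shared by the histone genes H2ac1 and H2bc1 was at 23.6 in KO with a peak of 406 bp and at 93.3 in WT with one of 207 bp. Efcab12 followed at 10.6 in KO and 76.6 in WT, and Atpif1, the inhibitor of the mitochondrial ATP synthase, at 3.32 in KO and 68.1 in WT, with KO peaks of 831 and 1597 bp. The KO and the WT peak of Atpif1 lay at different ends of the gene. The KO peak of Serbp1 was far wider than those of the others.

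Gene lists were counted at gene ends and read against all coding genes, of which 39.6% were marked in KO, 31.2% in KO with equal numbers and 14.6% in WT. Ribosomal protein genes were the list marked most often in both genotypes, and proteasome genes came next in KO but not in WT. Ribosomal protein genes were marked in 75 of 79 cases in KO, also with equal numbers, and 47 in WT. Rps14, Rps28 and Rps13 ranked highest in both, and Rps7, Rplp1 and Rpl38 (KO scores 582.94, 431.67 and 402.38) led the 28 that were KO only. The median percentile of the marked members was 93.1 in KO and 69.3 in WT. Proteasome subunit genes were marked in 29 of 31 cases in KO, 28 with equal numbers and 11 in WT. Psmb5, the chymotrypsin-like subunit (491.19), and Psmd14, the deubiquitinase of the lid (468.43), were KO only, and the ATPase subunits Psmc1 and Psmc4 were in both.

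Interferon response genes had the widest gap in share between the lists in full. They were marked in 27 of 29 cases in KO, 21 with equal numbers and 5 in WT. Bst2, an antiviral tether (369.95 in KO), and Gbp3, a guanylate-binding GTPase (261.93), were among the 22 that were KO only. B2m, the light chain of MHC class I, was in both, with 332.29 in KO and 95.37 in WT. H3K4me3 was present in both genotypes at 27 of the 29 genes, and 26 of those 27 had H3K27ac in KO (96.3%) and 5 in WT (18.5%). Of all 11109 coding genes with H3K4me3 in both, 72.5% had H3K27ac in KO and 26.6% in WT. Mice of both groups had received poly(I:C), and its part in these counts was not tested.

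Genes of growth signalling and transcription elongation were marked more often in KO, as coding genes were in general. Among genes with H3K4me3 in both genotypes, the share with H3K27ac in KO was 75.9% for the mTOR list (22 of 29) and the MYC network had 9 of 12, close to the 72.5% of all such genes. The share was higher for the MNK, ERK and eIF4E list, at 95.2% (20 of 21), and for P-TEFb and elongation genes, at 90.0% (27 of 30). In WT the shares were 34.5%, 8.33%, 28.6% and 56.7% in the same order of lists, against 26.6% of all such genes. The mTOR pathway had 22 of 30 genes marked in KO, 17 with equal numbers and 10 in WT. Akt1s1, the mTORC1 inhibitor PRAS40, scored 514.42 in KO and 219.22 in WT, at percentiles 98.1 and 98.2. Rheb, the GTPase that activates mTORC1, scored 445.95 in KO and 60.2 in WT, at percentiles 96.6 and 35.0. Akt2 (485.82) was KO only. MNK, ERK and eIF4E signalling had 21 of 23 in KO, 16 with equal numbers and 7 in WT. In that list Mknk2, a kinase of eIF4E, scored 205.35 over 5495 bp in KO and 190.96 over 1125 bp in WT, at percentiles 77.0 and 97.3, and Braf (323.81) was KO only. P-TEFb and elongation genes had 27 of 30 in KO, 25 with equal numbers and 17 in WT. The P-TEFb inhibitor Hexim1 scored 634.93 in KO and 218.75 in WT, at percentiles 99.4 and 98.2. Of the P-TEFb subunits, Ccnt2 (344.07) and Cdk9 (313.67) were KO only. Ccnt1 was in both, with 348.96 in KO and 142.2 in WT, at percentiles 92.3 and 93.1. The MYC network had 10 of 15 in KO, 6 with equal numbers and 1, Mnt, in WT. Myc itself was KO only, with a peak of 160.27 over 3443 bp.

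The writers, erasers and readers of acetylation had 17 of 24 genes marked in KO, 13 with equal numbers and 7 in WT. Ep300, which encodes p300, and the MYST acetyltransferase genes Kat5 (557.43 in KO and 223.85 in WT), Kat7 and Kat8 were marked in both. The MYST genes Kat6a and Kat6b were marked in neither. Crebbp, which encodes CBP, was KO only (89.25) and was not marked at equal numbers. Sirt6 (271.79) and Brd2 (204.96) were KO only. Cell cycle genes had 28 of 34 in KO, 23 with equal numbers and 11 in WT, with Pcna (338.88 in KO and 149.83 in WT) in both and Cdc20, the activator of the anaphase-promoting complex (403.02), KO only. Quiescence genes had 18 of 22 in KO, 13 with equal numbers and 8 in WT. Foxo3 and Trp53 were in both and Rbl2 (248.73) was KO only. Cdkn1a, which encodes p21, was WT only, through a peak beyond its upper end (56.38 over 1086 bp, percentile 23.7). That peak overlapped no H3K4me3 peak of either genotype and none of the 4 ATAC-seq lists. Glycolysis had 14 of 20 in KO, 11 with equal numbers and 4 in WT.

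Immediate early genes had the same count in KO and WT at equal numbers. They had 15 of 20 marked in KO, 10 with equal numbers and 10 in WT. Fos, Egr1 and Ier2 were KO only in the full lists, with wide peaks (7461, 8014 and 7705 bp) of low score (57.84, 57.45 and 62.97). None of them was marked at equal numbers. Nr4a1, with a KO peak of 999 bp, and Dusp2, with one of 4039 bp, also left the KO count. Jun was in both, with 597.39 in KO and 169.96 in WT, as were Ier3 and Dusp1. Zfp36, an mRNA decay factor gene, was WT only with a peak of 129.12 over 3717 bp, and Junb was WT only with 57.87 over 1175 bp.

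HSC transcription factor genes were marked at about the level of all coding genes. Of 28 HSC transcription factor genes, 12 were marked in KO, 9 with equal numbers and 5 in WT. Tal1 (192.3 in KO and 76.75 in WT) and Lyl1 were in both, Runx1 (231.75), Ikzf1 and Mecom were KO only, and Spi1 (72.35) and Hoxb4 (56.33) were WT only. Away from its ends Spi1 was also marked in KO, with a peak of 3613 bp and 312.26 inside the gene that overlapped a WT peak of 59.71. Within 50 kb of Spi1 the KO list had 4 peaks and the WT list 3, of which 2 overlapped a KO peak. At Runx1 the KO list had 11 peaks and the WT list 4 within 50 kb, and the KO peak at the gene end overlapped a WT peak just outside the window. Surface and cytokine receptor genes had 11 of 20 in KO, 4 with equal numbers and 2 in WT. Ptprc, which encodes CD45 (449.55 in KO and 170.73 in WT), and Cd44 were in both. Cxcr4 (367.26) and the integrin gene Itgb1 (278.69) led the KO-only members, while Procr, Csf3r, Eng and Thy1 had KO scores from 55.85 to 83.47.

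Lists of other cell types were marked at lower shares than all coding genes, and megakaryocyte markers in KO, at 33.3%, were the closest to that background. B cell markers had 5 of 18 in KO, 2 with equal numbers and none in WT, T and NK markers 3 of 20, 2 and 1, megakaryocyte markers 6 of 18, 3 and none, and stromal and endothelial markers 3 of 18, 2 and 1. Olfactory receptor genes, silent in blood, had 5 of 1106 in KO, 4 with equal numbers and 4 in WT. Olfactory receptors were therefore marked at similar low counts whatever the length of the list. Of the genes named from these lists, Ikzf1, Runx1, Cdk9, Rpl38 and Egr1 had a KO peak that overlapped a WT peak outside the window. The peaks of Lyl1, Sirt6, Brd2, Akt1s1, Pcna, Trp53, Ier3 and Rps28 reached the end of a neighbour as well. So did the KO peak of Ccnt1, and the lists do not say which gene such a peak belongs to.

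**Figure D5:**
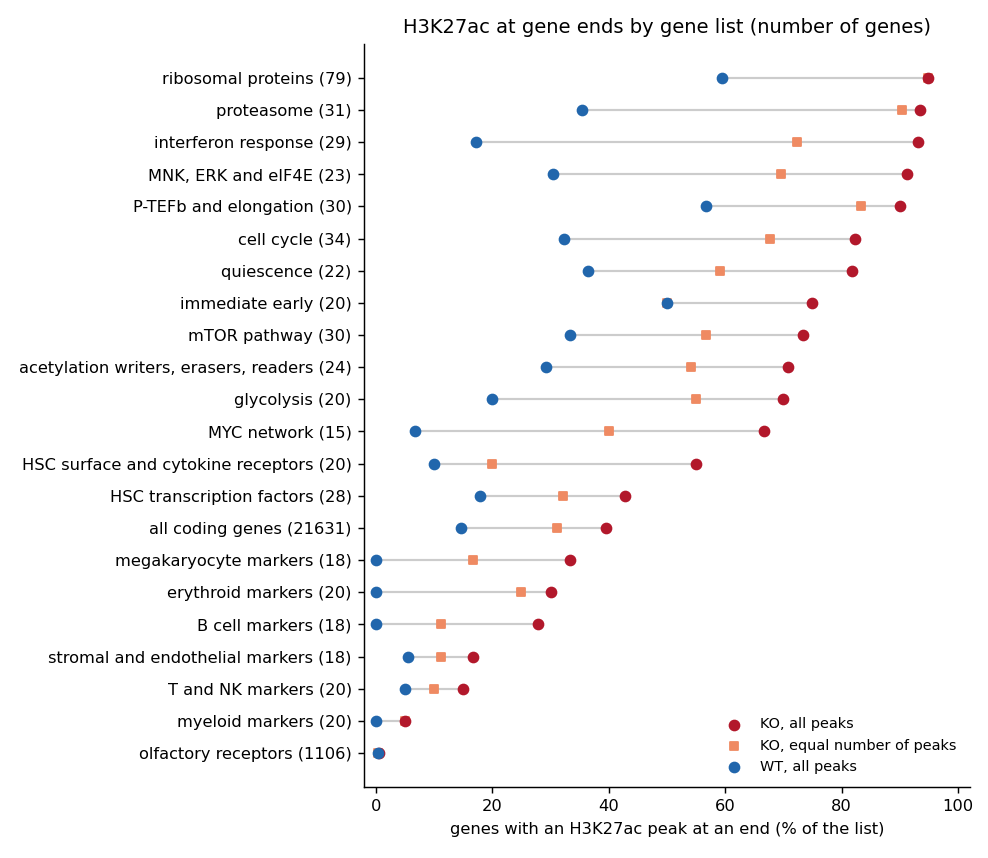
Percent of the genes of each list with an H3K27ac peak within 1000 bp of an end, in KO (all peaks, and the 10078 highest-scoring peaks) and in WT; the number of genes is in brackets. Ribosomal proteins stand at 94.9% in KO and 59.5% in WT, all coding genes at 39.6% in KO and 14.6% in WT.

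KO peaks were more often clustered in the full lists, and the numbers of domains were closer at equal numbers of peaks. The spacing of peaks still differed there, with a median gap of 70024 bp in KO and 115258 bp in WT. Gaps under 1000 bp made up 0.557% in KO and 4.04% in WT. Peaks of 1 list less than 12.5 kb apart were joined, and a domain held 3 or more. There were 883 domains in KO, 179 with equal numbers and 140 in WT, holding 15.4%, 5.93% and 4.70% of peaks. The ratio of domain numbers was 6.31 for the full lists and 1.28 at equal numbers. In KO 320 of the 883 domains held no WT peak, and in WT 5 of the 140 held no KO peak.

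Domains with many peaks lay at gene clusters and also away from coding genes. The domain with the most peaks in each list lay on chromosome 4 at the cluster of interferon zeta genes around Ifnz, with 15 peaks over 49603 bp in KO and 12 over 46142 bp in WT, none with a score above 182.26 in KO or 134.28 in WT. On chromosome 13 the histone cluster around H3c6 held 7 peaks in KO and 7 in WT, and the one around H2ac24 held 9 in KO and 6 in WT. Genes of these clusters are near-identical copies, so the placing of peaks among them is uncertain. A stretch with no coding gene, chr9:2999983-3036498, had 4 peaks in KO, the highest at a score of 1334.58 (rank 7), and 9 in WT, the highest at 1270.38 (rank 6), next in number of peaks in the WT list. In each genotype the highest peak of that stretch also overlapped a peak in 6 of the 8 H3K4me3, MYC and ATAC-seq lists. Another stretch with no coding gene, chr7:73595361-73626215, had 3 peaks in KO and 6 in WT. A KO domain of 99793 bp on chromosome 7, the longest, ran over Cd2bp2, Septin1 and Sephs2 with 10 peaks, and one on chromosome 17 over Daxx, Tapbp and Rps18, also with 10 peaks. Of the WT-only peaks alone, 6 domains were formed, among them 4 narrow peaks over 20243 bp between Gtf3c5 and Gfi1b, a repressor needed for HSC quiescence, with scores from 50.82 to 85.58, where KO had 1 peak within 50 kb.

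Away from gene ends, the highest-scoring KO-only peaks lay near Slc25a1 (578.49), inside Thumpd1 (518.64), near Ehhadh (498.99), inside Gmps (494.15) and inside Casz1 (490.11), and all 5 overlapped ATAC-seq peaks in all 4 lists. The highest WT-only ones lay inside Gria1 (281.59 over 139 bp), near Chd2 (272.74) and inside Jmjd1c, a histone demethylase family gene (240.22 over 2815 bp), with ATAC-seq peaks in 2, 2 and 4 lists.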

How the data were processed

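The peak lists were used as deposited by the authors, with 1 list per library. Each of the 5 columns (chromosome, start, end, a peak name of the form given by MACS, and a score) was read as it stood, and the score is a value of the authors' peak caller with no scale stated. Per the submitters' processing notes, the build was mm10, and the notes name CASAVA. Not given in the sources used here are the aligner, the caller's version and settings, any input control and the read depth, so a longer list can also come from a deeper library. Peaks on Y were left out. Overlap meant 1 bp or more, checked against bedtools 2.31.1. Coding genes (21631) came from RefSeq GRCm38.p6, whose table gives no strand, so windows of 1000 bp around both ends were used, and transcription starts from the promoter table (17274 genes) as an alternative. H3K4me3, MYC and ATAC-seq lists of the same genotypes (1, 1 and 2 libraries per genotype) were compared by overlap. RNA-seq and the mice with a floxed c-Myc allele were not analysed here.

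The members, the 20 hand-made gene lists and the 12 HSC markers were chosen with earlier results of these data known. Of 1622 listed symbols, olfactory receptors included, 1619 were matched. Genes were named by rule: Mtor and Myc, the best-ranked genes in both, the highest strict KO-only and WT-only genes (no overlap with the other genotype anywhere), the extremes of rank difference, the largest domains, the highest unshared distal peaks, and up to 3 KO-only, 3 shared and 2 WT-only genes per list. The text names a part of them, and other genes, such as Kit, Csf3r or Lmo2, were chosen after their values were seen. Interval functions were tested on simulated peaks with known overlaps. Analyses used Python 3.11.15, pandas 2.3.3, numpy 2.4.6 and scipy 1.17.1.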

Additional observations from a re-analysis of the deposited data

How the results depend on the processing

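No paired analysis was possible because each genotype had 1 library. Equal numbers of peaks set the ratio of KO to WT peak numbers to 1 by construction. They gave a ratio of median widths of 5.65, a KO gene-end share of 55.9%, overlap of 39.9% of KO and 43.5% of WT peaks, 385 WT-only genes and a domain ratio of 1.28. A score of 100 or more, which takes the scores of both lists to be on 1 scale, gave a peak ratio of 5.92, gene-end shares of 55.1% in KO and 39.4% in WT, overlap of 12.2% of KO and 73.0% of WT peaks, 33 WT-only genes, 841 in both and a domain ratio of 28.6. Peaks joined across less than 1000 bp gave overlap of 25.2% of KO and 50.6% of WT peaks. A window of 2500 bp gave gene-end shares of 42.7% in KO and 32.6% in WT and 285 WT-only genes, and transcription starts alone gave 33.0% in KO and 24.7% in WT. Among alternatives added after the data were seen, midpoints gave gene-end shares of 32.7% in KO and 25.9% in WT and 366 WT-only genes. Open chromatin alone gave 45.4% in KO and 48.6% in WT, which turned the order, and overlap of 26.6% of KO and 84.9% of WT peaks. Of all alternative values, 29 moved beyond their counting interval, or beyond 1.5 times for counts and ratios, and 36 did not. KO-only genes ranged from 3977 to 6026 over the alternatives. Depth is unknown and limits every comparison of list length. The causes of these shifts were not tested beyond the construction of each alternative.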

Other observations

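Peaks on chromosome Y, which entered no comparison, numbered 31 in KO and 108 in WT, whereas on chromosomes 1 to 19 and X the WT list was the shorter one. H3K27ac of KO overlapped 31.9% of the 22086 KO MYC peaks, and H3K27ac of WT overlapped 23.4% of the 8774 WT MYC peaks. With equal numbers of H3K27ac peaks the KO share was 22.3%, so the order of these shares turned with the length of the list. Of the WT MYC peaks, 46.5% were overlapped by H3K27ac of KO, and 32.4% with equal numbers.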
